A study of Mus musculus with 6 samples.

Results

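The subject is the Hox genes of the fetal mouse ovary: the 39 rows of the deposited expression table, out of 21898, whose symbol is Hox followed by a cluster letter a to d and a number. All 39 were found by this rule, with 11 in the Hoxa cluster, 10 in Hoxb, 9 in Hoxc and 9 in Hoxd. Expression was measured by RNA sequencing of total RNA from wild-type mouse ovaries taken at 14.5 days post coitum (dpc) and cultured for 3 days in serum-free DMEM/F12 medium. The treated group, NAPQI, had 15 µM N-acetyl-p-benzoquinone imine in the medium, the reactive metabolite of acetaminophen, and the control group had the same volume of ethyl acetate, its solvent. Each group had 3 libraries. The labels do not say how the animals or cultures were divided among them, and the p-values therefore reflect only how the libraries vary, which can be technical variation. Whole ovaries were sequenced, so fewer cells of a type and less RNA per cell cannot be told apart.

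Hox genes encode homeodomain transcription factors that give regions of the body axis and of the limbs and urogenital tract their identity. They lie in 4 clusters, and their order along the chromosome follows the order in which they are expressed along the embryo: genes at the 3′ end, with low numbers, act toward the head, and genes at the 5′ end, with high numbers, act toward the tail. Genes of the same number in different clusters are paralogues and together form a paralogue group. The gonad forms on the urogenital ridge of the trunk, beside the mesonephros and the Müllerian duct. The 5′ genes Hoxa9, Hoxa10, Hoxa11 and Hoxa13 are known for dividing the Müllerian duct into oviduct, uterus, cervix and vagina.

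Total counts were 13879347 to 17258609 per library, of which Hox genes took 3834 to 5759 counts, or 0.0262% to 0.0334%. The tissue matched its label: all 9 pregranulosa markers, Foxl2, Wnt4 and Rspo1 among them, had at least 1 FPKM (fragments per kilobase of gene length, scaled to the library's total, as deposited) in all 6 libraries, and so did 6 of 7 germ cell markers. Stra8, which marks entry into meiosis, was the exception, at 0.193 ± 0.0334 FPKM in controls (mean ± SD, n = 3) and 0.252 ± 0.063 FPKM with NAPQI. Markers of the mesonephros and nephric duct summed to only 8.15 to 10.6 FPKM in controls and 4.6 to 6.4 FPKM with NAPQI. Of these 8 markers 2 had at least 1 FPKM in all 6 libraries, and control means ran from 0.0249 ± 0.00628 FPKM for Lhx1 to 3.68 ± 1.31 FPKM for Wfdc2. On the first principal component of all tested genes, control replicates 1, 2 and 3 lay at -14.93, 3.89 and -35.68. NAPQI replicates 1, 2 and 3 lay at 11.57, 8.8 and 26.35, so every NAPQI library lay above every control. Control replicate 3 was the most extreme, and it had 241 FPKM of summed erythroid markers against 23 to 77.8 FPKM in the other libraries.

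The Hox signal of the cultured ovary came mainly from Hoxc4 to Hoxc8, at the 3′ end and in the middle of the Hoxc cluster, and from Hoxd8 and Hoxd9. With expression defined as at least 1 FPKM in all 6 libraries, 13 of the 39 genes were expressed (33.3%, against 53.5% of all rows of the table). They lay in paralogue groups 4 to 10. None of the 8 genes of groups 1 to 3 and none of the 9 genes of groups 11 to 13 reached this level in every library. Of the 15 genes of groups 4 to 8, 9 did. This depended on the level: at 0.5 FPKM the count was 18 and took in Hoxd1 and Hoxa3, by a mean of 1 FPKM it was 16 and took in Hoxd1, and at 2 FPKM it was 8. It was 7 among the 27 Hox genes whose span overlaps no other row. The Spearman correlation of paralogue number with mean FPKM over the 39 genes was -0.196. It is a description, and the genes share their libraries and clusters.

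**Figure D1:**
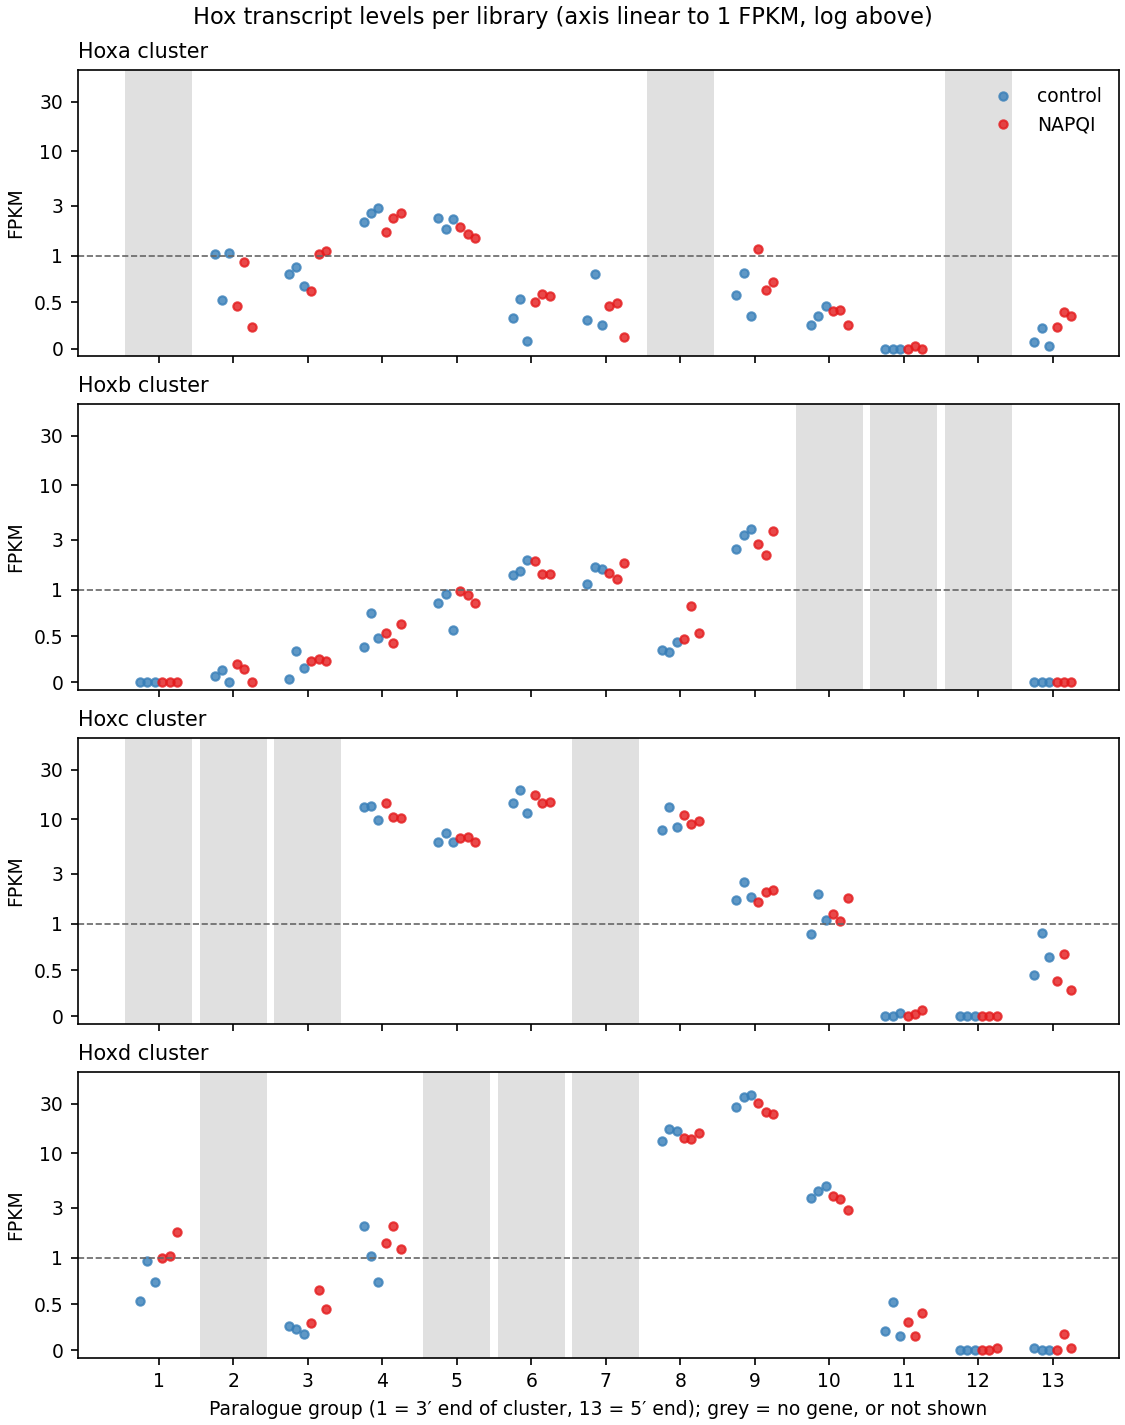
Deposited FPKM of Hox genes in each of the 6 libraries, by cluster and paralogue group, on an axis that is linear up to 1 FPKM and logarithmic above; blue points are control and red points NAPQI libraries, the dashed line is 1 FPKM, and grey columns are numbers with no gene in that cluster or not shown. All 6 points of a gene lie above the line only in groups 4 to 10, highest for Hoxd9 at 23.7 to 36.1 FPKM, and group 12 lies at or near 0.

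The Hoxd cluster lies on chromosome 2 (GRCm39, plus strand) from the start of Hoxd13 at 74498654 to the end of Hoxd1 at 74595486. Hoxd9, which acts with its paralogues in the lumbar spine and hindlimb motor neurons, was the highest Hox gene of the ovary. Its level was 27.7, 34.9 and 36.1 FPKM in control replicates 1, 2 and 3 and at 30.4, 25.0 and 23.7 FPKM in NAPQI replicates 1, 2 and 3, above 91.5% of all rows by mean FPKM. Its lowest library was above the highest library of every other Hox gene, which was not so for most neighbours further down: in the order of mean levels, 10 of the first 13 neighbouring pairs had overlapping ranges. Hoxd8, an axial patterning gene next to it, stood at 13, 17.0 and 16.3 FPKM in controls and 14.1, 13.8 and 15.5 FPKM with NAPQI. Hoxd10, also a lumbar gene, stood at 3.73, 4.34 and 4.84 FPKM in controls and 3.91, 3.66 and 2.85 FPKM with NAPQI. In all 3 genes the groups overlapped. The level then broke off toward the 5′ end. Hoxd11, which shapes the forearm together with Hoxa11, stood at 0.208, 0.523 and 0.154 FPKM in controls and 0.311, 0.152 and 0.399 FPKM with NAPQI. Hoxd12 had a count in 1 of 6 libraries and Hoxd13, the digit and genital tubercle gene, in 3, with at most 0.18 FPKM.

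The sequences before the starts of Hoxd9 and Hoxd8, the highest Hoxd genes, and of Hoxd12 and Hoxd13, which were near 0 a few genes away, are shown so that both sides of this step can be compared. Each is the 250 bases before the start, from RefSeq on GRCm38.p6 (plus strand), an older build than that of the counts, with CpG dinucleotides in capitals. The windows are chr2:74697513-74697762 for Hoxd9, chr2:74704365-74704614 for Hoxd8, chr2:74674763-74675012 for Hoxd12 and chr2:74667975-74668224 for Hoxd13.
Hoxd9: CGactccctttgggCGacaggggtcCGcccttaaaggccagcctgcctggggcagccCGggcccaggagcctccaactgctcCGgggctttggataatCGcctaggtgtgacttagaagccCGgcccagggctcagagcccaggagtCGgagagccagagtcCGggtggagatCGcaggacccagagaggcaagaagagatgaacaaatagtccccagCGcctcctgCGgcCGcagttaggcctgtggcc
Hoxd8: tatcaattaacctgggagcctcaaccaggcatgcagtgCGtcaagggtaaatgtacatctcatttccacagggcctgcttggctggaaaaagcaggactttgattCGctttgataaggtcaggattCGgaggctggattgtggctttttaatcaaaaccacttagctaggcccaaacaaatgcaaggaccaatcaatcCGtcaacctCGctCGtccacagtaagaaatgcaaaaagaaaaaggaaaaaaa
Hoxd12: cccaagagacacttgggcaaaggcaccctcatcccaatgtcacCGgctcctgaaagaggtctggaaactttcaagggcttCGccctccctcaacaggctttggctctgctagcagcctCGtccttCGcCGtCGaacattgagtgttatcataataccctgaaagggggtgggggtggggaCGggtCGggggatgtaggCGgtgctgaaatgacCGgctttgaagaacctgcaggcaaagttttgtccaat
Hoxd13: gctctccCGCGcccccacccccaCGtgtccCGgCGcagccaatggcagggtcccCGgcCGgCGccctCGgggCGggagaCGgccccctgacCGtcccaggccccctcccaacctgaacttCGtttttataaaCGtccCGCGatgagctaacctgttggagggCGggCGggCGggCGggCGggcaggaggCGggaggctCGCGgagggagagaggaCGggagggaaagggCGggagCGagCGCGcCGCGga

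Hoxd9 and Hoxd8 held 13 and 6 CpG dinucleotides, and Hoxd12 and Hoxd13 held 10 and 31, so Hoxd13, near 0 in level, had the most of these. At the step itself, the window of Hoxd10 held 20, and those of Hoxd11 held 2 and 20. RefSeq windows were matched for 22 of the 39 genes (24 windows), with a median of 12.5 CpG against 6 over all 32841 windows. The 5 windows of expressed genes had a median of 13 and the 19 of the others one of 12. On both strands, the CCAAT box (CCAAT) was found in 14 of the 24 Hox windows and in 33.9% of all windows, and the TATA box (TATAAA) in 4 and in 12.4%. A composite PBX-HOX element (TGATTNAT) was found in 2, those of Hoxa2 and Hoxd11, and in 2.83% of all, and a MEIS element (TGACAG) in 2, those of Hoxa2 and Hoxa3, and in 15.9%. An exact match to the DR5 direct repeat bound by retinoic acid receptors was found in none of the Hox windows and in 0.00913% of all. The matches are a description of these letters and not of binding.

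The 3′ part of Hoxd was low. Hoxd4, which patterns the neck vertebrae, stood at 2.02, 1.04 and 0.733 FPKM in controls and 1.39, 2.02 and 1.21 FPKM with NAPQI, the highest mean among genes below the level in some library. Hoxd3, a gene of the first neck vertebrae, stood at 0.265, 0.235 and 0.172 FPKM in controls and 0.297, 0.655 and 0.451 FPKM with NAPQI, and Hoxd1, which in mouse acts in pain-sensing neurons, at 0.533, 0.965 and 0.735 and then 1.00, 1.03 and 1.77 FPKM. In Hoxd3 and Hoxd1 every NAPQI library lay above every control. The spans of Hoxd3 and Hoxd4 start within a few bases of each other and overlap each other and the row Gm28230, so reads of one may be counted for the other or left uncounted.

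The Hoxc cluster (chromosome 15, plus strand, 102829538 to 102945278 from Hoxc13 to Hoxc4) was expressed from its 3′ end to the middle. Hoxc6, a gene of the brachial and upper thoracic trunk, stood at 14.2, 19.1 and 11.5 FPKM in controls and 17.1, 14.4 and 14.7 FPKM with NAPQI. Hoxc4 stood at 13.1, 13.5 and 9.93 and then 14.5, 10.5 and 10.4 FPKM. Hoxc8, which patterns the lower ribs and forelimb motor neurons, stood at 7.96, 13.1 and 8.47 and then 11, 8.98 and 9.69 FPKM. In all 3 the groups overlapped, and control replicate 2 was the highest control. Hoxc5 had a mean of 6.49 FPKM and Hoxc9, a thoracic gene, one of 1.96 FPKM, both expressed in every library. Hoxc10, a lumbar gene, fell just short: it stood at 0.887, 1.91 and 1.09 FPKM in controls and 1.24, 1.07 and 1.76 FPKM with NAPQI. Hoxc11 had 1 or 2 counts in 3 libraries and Hoxc12 had none in any, which with 3 counts as the limit per library allows up to 0.169 to 0.21 FPKM. Hoxc13, the hair and nail gene at the 5′ end, was again detected, at 0.451, 0.895 and 0.644 FPKM in controls and 0.38, 0.675 and 0.284 FPKM with NAPQI. The span of Hoxc5 runs over Hoxc10, Hoxc9, Hoxc8 and Hoxc6, and no source used here says how reads in shared exons were counted.

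The Hoxb cluster (chromosome 11, plus strand, 96085142 to 96259082 from Hoxb13 to Hoxb1) was low, with levels that increased from gene to gene up to Hoxb6. From Hoxb1, a hindbrain gene at 0 counts in all libraries, the mean climbed through Hoxb2 at 0.0905, Hoxb3 at 0.209, Hoxb4 at 0.532, Hoxb5 at 0.861 and Hoxb6 at 1.58 FPKM. Hoxb9, which acts with Hoxa9 and Hoxd9 in the mammary gland, was the highest, at 2.45, 3.38 and 3.81 FPKM in controls and 2.74, 2.13 and 3.64 FPKM with NAPQI. Hoxb6 and Hoxb7 were the lowest genes to count as expressed. Hoxb6 stood at 1.37, 1.5 and 1.91 and then 1.87, 1.43 and 1.43 FPKM, and Hoxb7 at 1.13, 1.65 and 1.59 and then 1.45, 1.28 and 1.81 FPKM. Between these genes and Hoxb9 lay a dip: Hoxb8, a trunk gene also used by blood progenitors, stood at 0.355, 0.33 and 0.437 FPKM in controls and 0.473, 0.824 and 0.531 FPKM with NAPQI, without overlap of the groups. Hoxb13, a gene of the tail and prostate, had no count in any library, which allows up to 0.0788 to 0.098 FPKM, and Hoxb1 up to 0.0749 to 0.0931 FPKM. These limits and all single counts cover counting error only.

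The Hoxa cluster (chromosome 6, minus strand, 52139397 to 52237788 from Hoxa2 to Hoxa13) had only Hoxa4 and Hoxa5 above the level. Hoxa4 stood at 2.09, 2.58 and 2.85 FPKM in controls and 1.68, 2.28 and 2.55 FPKM with NAPQI. Hoxa5, which is needed for lung development, stood at 2.30, 1.79 and 2.26 and then 1.89, 1.63 and 1.49 FPKM. Hoxa3, a gene of the thymus and parathyroid, stood at 0.806, 0.877 and 0.671 and then 0.622, 1.04 and 1.11 FPKM. Its span covers Hoxa4, Hoxa5 and Hoxa6. The genes of the Müllerian duct were low. Hoxa9, the oviduct gene, stood at 0.575, 0.81 and 0.349 FPKM in controls and 1.15, 0.63 and 0.715 FPKM with NAPQI, and Hoxa10, a gene of the uterus, at 0.25, 0.354 and 0.463 and then 0.40, 0.41 and 0.257 FPKM. Hoxa11, also of the uterus, had 1 count in 1 library. Hoxa13, of the cervix and vagina, had a count in all 6 libraries, at 0.073, 0.217 and 0.03 FPKM in controls and 0.234, 0.399 and 0.35 FPKM with NAPQI, too few counts to be tested. Hoxa2, which patterns the second pharyngeal arch, had a mean of 0.71 FPKM, and Hoxa6 and Hoxa7, trunk genes, had means of 0.432 and 0.404 FPKM.

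The clusters contributed very unequal amounts to the Hox signal. In controls Hoxd held 46.4% ± 3.95 of the summed Hox FPKM and Hoxc 39.7% ± 4.83 (SD, n = 3), against 6.95% ± 0.586 for Hoxa and 6.89% ± 0.752 for Hoxb. With NAPQI the shares were 43.0% ± 0.422, 42.4% ± 1.12, 7.05% ± 0.826 and 7.51% ± 0.847. The 6 highest genes, Hoxd9, Hoxc6, Hoxd8, Hoxc4, Hoxc8 and Hoxc5, held 74.3% to 78.2% of it in every library. By paralogue group, group 9 was the largest, with 32.5% ± 3.30 in controls and 28.6% ± 1.21 with NAPQI, followed by group 8 with 21.4% ± 1.28 and 22.4% ± 1.30. Groups 11 to 13 together held 0.709% to 1.37%.

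**Figure D2:**
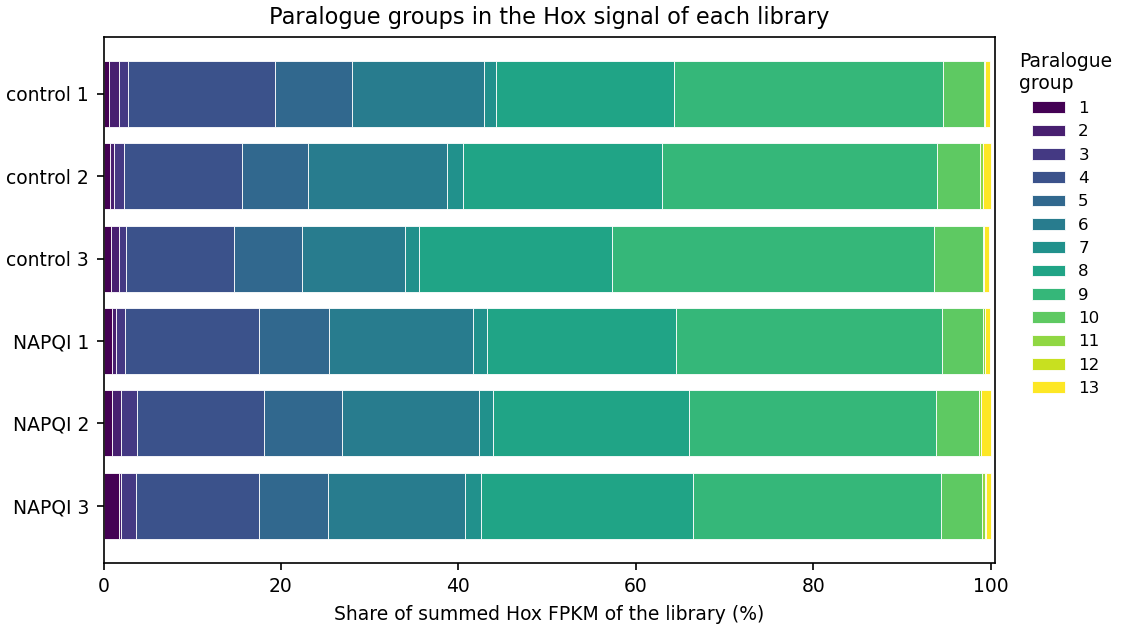
Share of the summed Hox FPKM of each library held by each paralogue group, one bar per library. Groups 4, 5, 6, 8 and 9 fill most of each bar, and group 9 is widest in control replicate 3, at 36.3%.

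The design asks how exposure to NAPQI changes the ovarian transcriptome relative to the solvent. For Hox genes no difference passed the test. Counts were compared over all genes with the quasi-likelihood test of edgeR, adjusted by the Benjamini-Hochberg method, and 28 of the 39 Hox genes had enough counts to be tested, 7 in each cluster. Of these, 0 had an adjusted p under 0.05, where 12 of 14736 tested genes did (0.0814%, or 0.0746% higher and 0.00679% lower). Leaving out a library moved the count over all genes: it fell to 1 when control replicate 3 or either of NAPQI replicates 1 and 3 was dropped, and it was 25 when NAPQI replicate 2 and 58 when control replicate 2 was dropped. That of Hox genes was 0 each time. DESeq2, which called 0.509% of all tested genes, and the exact test of edgeR, which called 0.78%, also called 0 Hox genes. With an unadjusted p under 0.05 there were 2 Hox genes, Hoxd9 (lower) and Hoxd3 (higher), against 9.24% of all tested genes, 4.21% higher and 5.03% lower. This count was 0 without control replicate 3 or NAPQI replicate 3, 1 without NAPQI replicate 2 and 3 without NAPQI replicate 1. The authors' deposited table lists 36 of the Hox genes, each with an adjusted p of 1. The median log2 fold change of the 28 was -0.037, with 11 positive and 17 negative, beside -0.011 over all tested genes, of which 47.4% were positive. The changes lay between -0.70 for Hoxa2 and 1.02 for Hoxd3, and 23 of the 28 were under 0.5 in size, beside 92.2% of all tested genes. Hox genes were measured less tightly than most: their median level in CPM (counts scaled to the library's total, not to gene length) was 3.34 against 32.5, and the median SD of log2(CPM + 0.5) within groups was 0.289 against 0.166.

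**Figure D3:**
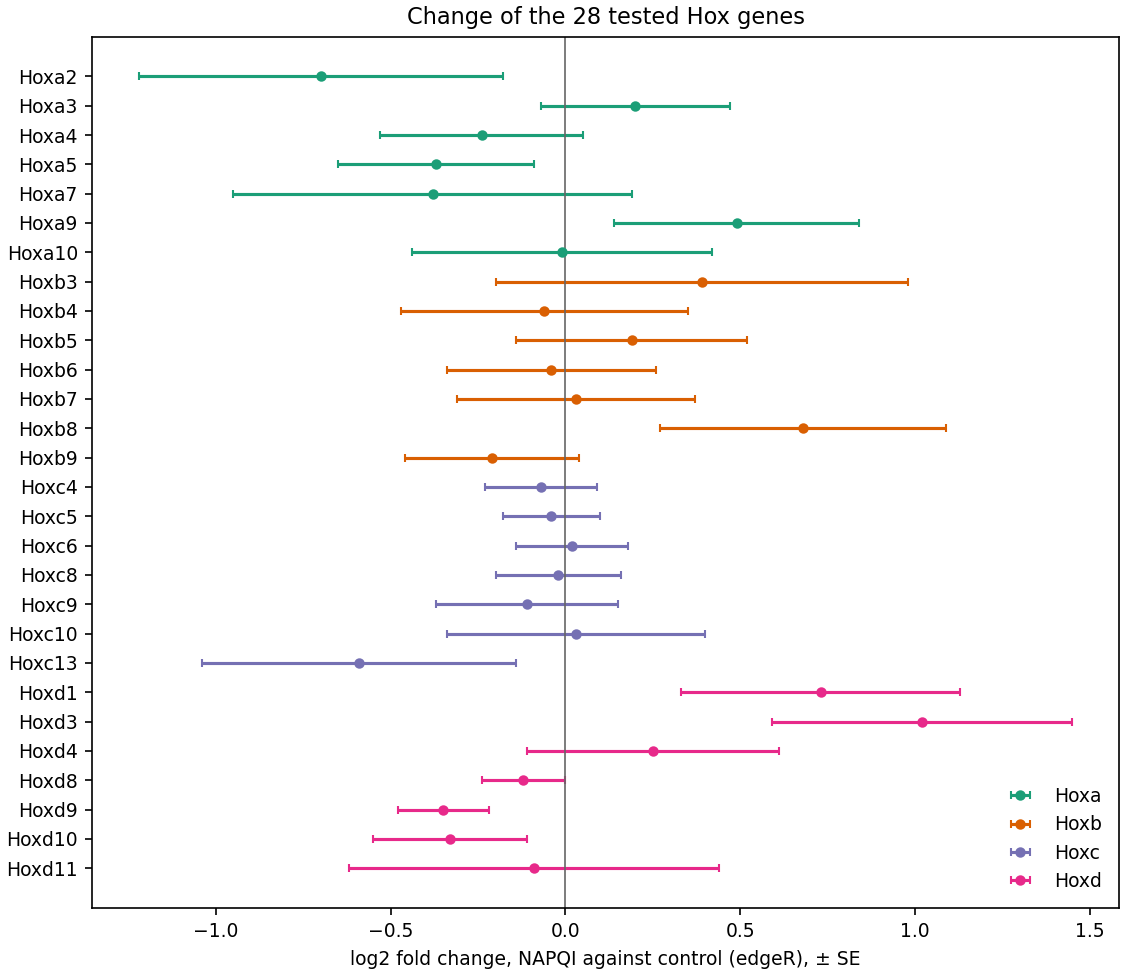
Log2 fold change of each of the 28 tested Hox genes, NAPQI against control, from the edgeR fit, with bars of 1 standard error, coloured by cluster and ordered by paralogue group within it. Hoxc4 to Hoxc8 lie within 0.07 of 0 with the shortest bars together with Hoxd8 and Hoxd9, and Hoxd3 lies farthest out, at 1.02 ± 0.43.

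Hoxd9 had the smallest p of the family. Control libraries averaged 71.1 ± 10.5 CPM and NAPQI libraries 55.8 ± 7.85 CPM (SD, n = 3). The log2 fold change was -0.35 ± 0.13 (SE), with an edgeR adjusted p of 0.441 and an unadjusted p of 0.0195 from the same fit. NAPQI replicates 2 and 3 lay below all controls, but NAPQI replicate 1 lay above control replicate 1, so the groups overlapped. Its neighbours had fitted values of the same sign: Hoxd10 was at -0.33 ± 0.22 (edgeR adjusted p = 0.65), Hoxd8 at -0.12 ± 0.12 (edgeR adjusted p = 0.787) and Hoxd11 at -0.09 ± 0.53 (edgeR adjusted p = 0.972). Without control replicate 2, however, Hoxd11 was at 0.62. The share of the Hox signal held by groups 9 to 13, which is mostly Hoxd9, was 35.7%, 37.0% and 42.6% in control replicates 1, 2 and 3 and 35.4%, 34.0% and 33.6% in NAPQI replicates 1, 2 and 3. Control replicate 1 and NAPQI replicate 1 were almost level, and without control replicate 3 the difference of the means shrank from -4.09 to -2.00 percentage points. The summed mesonephros and nephric duct markers moved the same way, at 8.15, 9.04 and 10.6 FPKM in controls and 6.04, 4.6 and 6.4 FPKM with NAPQI. Of the 8 markers 7 were tested, all 7 with a negative log2 fold change and 2 with an unadjusted p under 0.05, and none passed. Some other lists leaned the same way, with sums that overlapped between the groups. Of 6 stroma markers 5 were negative, 3 with an unadjusted p under 0.05, and their sums were 305, 269 and 288 FPKM in controls and 292, 234 and 208 FPKM with NAPQI. Of the macrophage markers 5 of 6 were negative, and of the tested Müllerian duct and erythroid markers 4 of 4 each. The Müllerian duct list shares Pax2 with the mesonephros list and includes Emx2, at -0.02. The remaining lists did not all lean this way. Of the tested germ cell markers 5 were positive and 1 negative, of smooth muscle markers 3 and 2, and of endothelium markers 3 and 3. Pregranulosa markers had 4 positive and 5 negative, surface epithelium 3 and 4, and neuron and Schwann cell 2 and 2. Over all tested genes, 47.4% had a positive log2 fold change, and 5.03% were lower with an unadjusted edgeR p under 0.05. None of the markers in these lists passed. The part of these cells in the Hoxd9 values was not tested.

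At the other end of Hoxd the signs were opposite. Hoxd3 averaged 0.946 ± 0.189 CPM in control and 1.94 ± 0.742 CPM in NAPQI libraries, on 10 to 43 counts per library. Its log2 fold change was 1.02 ± 0.43, with an edgeR adjusted p of 0.502 and an unadjusted p of 0.0331 from the same fit. For Hoxd1 it was 0.73 ± 0.40 (edgeR adjusted p = 0.587) and for Hoxd4 0.25 ± 0.36 (edgeR adjusted p = 0.851). Hoxd4 came to -0.005 without control replicate 3. Along Hoxd the fitted changes were positive for the 3 genes at the 3′ end and negative for the 4 from Hoxd8 on. None of the 7 passed, and the pattern was seen after the values were known. In the authors' deposited table the log2 fold change is -0.344 for Hoxd9 (p = 0.0544) and 1.041 for Hoxd3 (p = 0.0582).

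Among the other small p-values, the fitted log2 change was 0.68 ± 0.41 for Hoxb8 (edgeR adjusted p = 0.623) and 0.49 ± 0.35 for Hoxa9 (edgeR adjusted p = 0.67). The groups did not overlap for 3 of the 28 tested genes, Hoxd3, Hoxd1 and Hoxb8, all higher with NAPQI, where 14.4% of all tested genes had no overlap, 7.26% higher and 7.13% lower. These 3 genes had mean levels under 3 CPM in both groups. Among the highly expressed Hoxc genes, which had the smallest standard errors together with Hoxd8 and Hoxd9, Hoxc6 had a log2 fold change of 0.02 ± 0.16, Hoxc8 of -0.02 ± 0.18, Hoxc5 of -0.04 ± 0.14 and Hoxc4 of -0.07 ± 0.16. Hoxb6, Hoxb7, Hoxc10 and Hoxa10 were also within 0.04 of 0. Except for Hoxc5, for which no alternative was run, the sign of each of these turned with single libraries left out, and those of Hoxc8 and Hoxa10 also with scaling by library size alone. Hoxc13 was at -0.59 ± 0.45, Hoxb9 at -0.21 ± 0.25, Hoxa5 at -0.37 ± 0.28, Hoxa4 at -0.24 ± 0.29 and Hoxa3 at 0.20 ± 0.27, with edgeR adjusted p of 0.694 to 0.843.

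Among the libraries, control replicate 2 had the highest Hox signal, 135 FPKM summed over the 39 genes, against 106 and 116 FPKM in control replicates 1 and 3 and 120, 107 and 108 FPKM in NAPQI replicates 1, 2 and 3. It was the highest library for 11 of the 28 tested Hox genes (39.3%, against 15.6% of all tested genes), and 22 of the 28 lay above their own mean there. Control replicate 1 was the highest for 1 gene, and 5 of the 28 lay above their mean. The median deviation was 0.185 in control replicate 2 and -0.177 in control replicate 1 on the log2 scale. Without control replicate 2 the median log2 fold change of the Hox genes was 0.135 in place of -0.037. Control replicate 2 also had the highest sums of surface epithelium markers, 160 FPKM against 48.8 to 118 FPKM, and of smooth muscle markers, 79.7 against 39.1 to 60.7 FPKM, and control replicate 1 had the lowest of both. The smooth muscle sum was mostly Acta2, at 67.5 FPKM in control replicate 2, whereas Myh11 stood at 6.95 FPKM there and at 9.28 FPKM in control replicate 1. The part of these cells in the Hox levels was not tested.

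**Figure D4:**
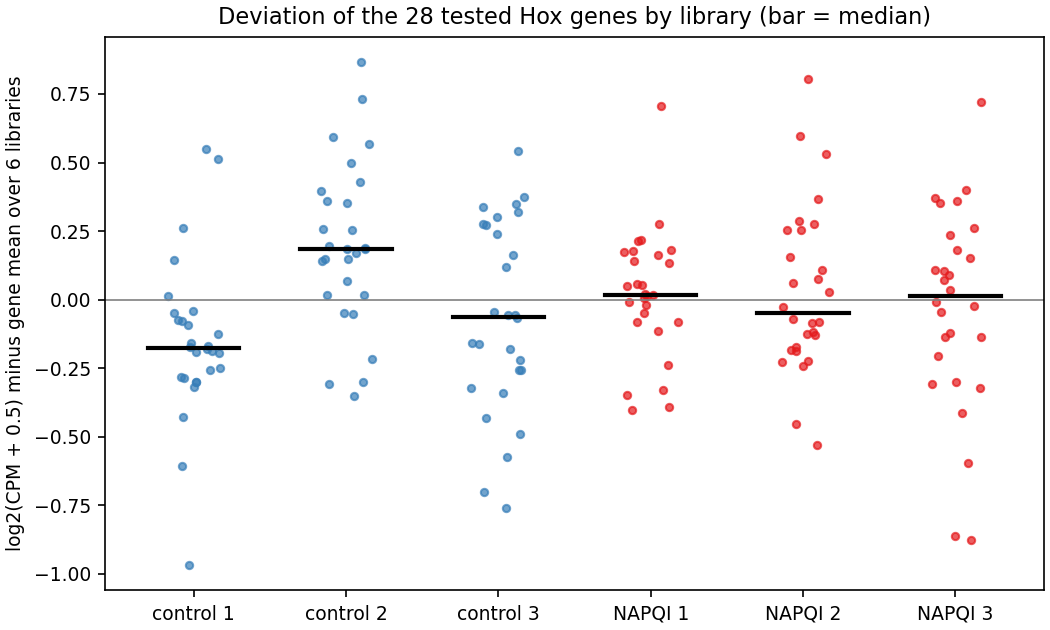
Deviation of each of the 28 tested Hox genes from its own mean over the 6 libraries, as log2(CPM + 0.5), by library; points are genes, black bars are medians, blue is control and red NAPQI. The medians of control replicates 1 and 2, at -0.177 and 0.185, lie farther apart than those of the NAPQI libraries, at -0.048 to 0.018.

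HOX proteins bind DNA together with homeodomain cofactors of the PBX, MEIS and PKNOX families. All 9 listed cofactors had at least 1 FPKM in all 6 libraries, with a summed 90.2 to 102 FPKM in controls and 95.4 to 100 FPKM with NAPQI. None passed the test, 4 had a positive and 5 a negative log2 fold change, and the median was -0.104. Pbx2 was the highest, at 35.2 ± 3.00 FPKM in controls and 39.7 ± 1.11 FPKM with NAPQI, and Pbx3 came next, at 16.8 ± 0.896 and 15.3 ± 0.0673 FPKM. Meis2 stood at 2.05 ± 0.381 and 1.64 ± 0.0479 FPKM, and was fitted at -0.35 ± 0.15 (edgeR adjusted p = 0.504). For Meis2, Pbx3 and Pbx4 the groups did not overlap.

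Of 12 listed regulators of the clusters, 9 were tested and none passed, with a median log2 fold change of 0.007, 5 positive and 4 negative. Cdx2 and Cdx4, which switch on Hox genes in the tail bud, had 0 counts in all libraries, and Cdx1 stood at 1.49 ± 0.295 FPKM in controls and 1.13 ± 0.292 FPKM with NAPQI. The boundary factor Ctcf and the menin gene Men1, a partner of the Hox activator KMT2A, were the highest, at 31.0 ± 2.30 and 26.7 ± 1.18 FPKM in controls. Rara, a receptor of retinoic acid, was at -0.23 ± 0.12 in log2 fold change (edgeR adjusted p = 0.564) and Gdf11, a ligand that starts posterior Hox expression, at 0.22 ± 0.13 (edgeR adjusted p = 0.625). Polycomb proteins keep Hox genes silent outside their domains. All 16 listed Polycomb genes were expressed and tested, none passed, 11 were negative and 5 positive, and the median was -0.011. Pcgf2 was at -0.21 ± 0.12 in log2 fold change (edgeR adjusted p = 0.611). Rnf2 and Phc1 had the highest means over the 6 libraries, at 34.7 and 31.8 FPKM.

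Among other homeobox genes of the gonad and urogenital ridge, 5 of 21 listed had a higher mean FPKM than Hoxd9. Irx3, a gene of pregranulosa cells, stood at 88.2 ± 11.5 FPKM in controls and 88.4 ± 3.87 FPKM with NAPQI, and Emx2, which is needed for the gonad to form, at 49.4 ± 5.91 and 49.5 ± 0.0741 FPKM. Of the list 16 were tested and none passed, with 7 positive, 9 negative and a median log2 fold change of -0.018. Six5 was at -0.20 ± 0.10 (edgeR adjusted p = 0.563). At the outer ends of the clusters Evx1, next to Hoxa13, stood at 0.224 ± 0.086 and 0.255 ± 0.0603 FPKM, and Evx2, next to Hoxd13, had 0 counts. Only 2 other rows of the table lay inside the clusters, Gm28308 in Hoxa with 0 counts and Gm28230 in Hoxd at 0.0807 ± 0.0565 FPKM in controls and 0.238 ± 0.0719 FPKM with NAPQI, too few counts to be tested.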

How the data were processed

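Per the file headers, the authors' main table gives each gene's read count, unnormalized, in every library and its FPKM, deposited alongside. Each deposited FPKM equalled the count divided by the listed gene length and by the library's total, on the usual scale, within a relative tolerance of 0.001. Another deposited file gives the authors' own comparison: a mean normalised signal per group, the ratio (fold) of the means, its log2 value and the authors' p-value and adjusted p-value. The submitters' processing notes name FastQC 0.11.8, HISAT2 2.0.5, HTSeq 0.9.1 and GRCm39. No source used here states settings or strandedness, so reads of antisense partners cannot be told apart. Both tables had 1 empty line, which was not used.

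Total counts per library were 13879347 to 17258609. Genes were kept by filterByExpr (minimum count 10), scaled by TMM and compared with the two-sided quasi-likelihood test of edgeR 4.0.16 in R 4.3.3, with Benjamini-Hochberg adjustment over 14736 genes at 0.05. Levels between genes use FPKM, and CPM uses TMM-scaled totals. Errors are SD over 3 libraries or, for fold changes, standard errors of the fit. Alternatives were other scalings, filters and FPKM levels, DESeq2 1.42.0, limma-voom (limma 3.58.1), edgeR's exact test, a block for the replicate number, and leaving out each library. Members and lists were chosen with earlier results of these data known. Values in every library are given for the 3 highest genes of each cluster, the 6 smallest p-values, the 2 genes nearest the expression level on each side and the most 5′ tested gene of each cluster, and for Hoxa13, added after its values were seen. In the other lists, the 2 smallest p-values and the 2 highest levels are named. A few genes that these rules or a full account would name are not reported here. No 2 libraries shared more than 1.11% of gene counts among well-covered genes.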

Additional observations from a re-analysis of the deposited data

How the results depend on the processing

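No Hox gene was called under any of the 16 alternatives to the call (other scalings, filters and tests, the replicate block, a threshold of 0.1 and each library left out). The smallest adjusted p of any of the 21 named genes in any alternative fit was 0.194. Over all genes, 48 were called with no low-count filter, 75 by DESeq2, 115 by edgeR's exact test, 1 by limma-voom and 1 with the replicate block, and 1 to 58 with each library left out. With the replicate block, 1 Hox gene had an unadjusted p under 0.05, and 0 to 3 did with each library left out. The deviations of same-numbered libraries from their group means correlated at 0.061, -0.178 and -0.051, and those of differently numbered ones at -0.178 to 0.212. With 3 libraries per group the deviations cancel within each group. These values therefore cannot settle whether the replicate numbers pair the libraries. The Hox median log2 fold change was -0.154 to 0.135 with each library left out. At 2 FPKM, 8 Hox genes were expressed. Leaving out rows with overlapping spans, an alternative chosen after seeing the data, gave 7.

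Of 315 alternative log2 fold changes of named genes, 29 changed sign, in 9 of the 21 genes. Hoxa10 was at 0.000337 with upper quartile scaling, 0.0168 with library size alone, 0.0196 with limma-voom and 4.12e-05 with the replicate block. Hoxc8 was at 0.00412 with library size alone, 0.00202 with limma-voom and 0.00675 with the replicate block, and Hoxd11 at 0.00222 with the block. With each library left out, the ranges were -0.213 to 0.222 for Hoxa10, -0.175 to 0.119 for Hoxb6, -0.124 to 0.142 for Hoxb7, -0.19 to 0.428 for Hoxc10, -0.241 to 0.0171 for Hoxc4, -0.129 to 0.235 for Hoxc6, -0.154 to 0.241 for Hoxc8, -0.379 to 0.62 for Hoxd11 and -0.00499 to 0.762 for Hoxd4. The cause was not tested. Hoxd9 stayed negative, at -0.457 to -0.264, and Hoxd3 positive, at 0.703 to 1.27. At this depth 11 of the 39 Hox genes had too few counts to be tested, and the standard error of the log2 fold change of the others ran from 0.12 for Hoxd8 to 0.59 for Hoxb3.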
